A study of Mus musculus with 12 samples.

Results

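The E2F transcription factors and their DP partners were followed across 8 RNA-seq libraries of mouse embryonic stem cells (ESCs). The 10 genes E2f1 to E2f8, Tfdp1 and Tfdp2 were taken by symbol from the 24881 symbols of the expression table. All 10 were among the 12572 genes with a mean level of at least 0.5 FPKM, the filter used for testing, where FPKM is the fragment count of a gene scaled by its length and by the size of the library. All libraries came from R1 ESCs with the FUCCI reporters, whose fluorescence tells G1 from later phases of the cell cycle, and the cells were sorted in G1 phase before RNA was taken. WT and P53-/- cells were each grown in serum with leukemia inhibitory factor or in 2i, a serum-free medium with inhibitors of MEK and GSK3 and the same factor, with 2 libraries in each of the 4 groups. P53-/- cells were made by CRISPR/Cas9 targeting of an exon common to the Trp53 isoforms. The sequenced P53-/- cells came from 2 clones, and the table does not tie a library to a clone, so that differences between genotypes and between clones cannot be told apart.

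E2F proteins bind promoters of genes needed for DNA replication and division. E2f1 to E2f6 bind as heterodimers with a DP protein, and the pocket proteins Rb1, Rbl1 and Rbl2 hold E2f1 to E2f5 in check until cyclin-dependent kinases release them late in G1. E2f1, E2f2 and E2f3 are known as activators, E2f4, E2f5 and E2f6 mostly as repressors, and the atypical E2f7 and E2f8 repress without a DP partner. In ESCs the pocket proteins are kept largely phosphorylated in serum, and G1 is short.

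The libraries were estimated to hold 5220000 to 13300000 fragments, and 15181 to 15792 genes were above 0 in each. Pluripotency markers summed to 3668 to 4587 FPKM in every library, of which Dppa5a alone held 1403 to 2691 FPKM. Sall4, however, was at 54.3 to 56.5 FPKM in serum and 12.98 to 17.5 FPKM in 2i, and Klf4 was 1.95-fold lower in P53-/- 2i than in WT 2i (adjusted p = 0.00782). In that comparison 9 of the 10 pluripotency markers, all but Dppa5a, had a log2 fold change below 0, with a median of -0.30 against 0.02 over all genes, and Klf4 was the 1 called. Primitive endoderm markers summed to 3.01 and 2.76 FPKM in WT serum, 1.28 and 1.504 FPKM in P53-/- serum, 4.54 and 2.77 FPKM in WT 2i and 1.68 and 2.41 FPKM in P53-/- 2i, lower in each P53-/- library than in WT. Neural and mesoderm markers summed to 29.5 and 30.7 FPKM in WT serum, 38.4 and 42.9 FPKM in P53-/- serum, 38.2 and 36.8 FPKM in WT 2i and 29.7 and 25.6 FPKM in P53-/- 2i. In P53-/- against WT 2i, the neural genes Tubb3 and Nes had log2 fold changes of -0.62 (adjusted p = 0.054) and 0.59 (adjusted p = 0.11), and in serum Tubb3 had 0.72 (adjusted p = 0.122). Feeder markers, mostly Vim, summed to 41.2 to 65.0 FPKM in serum, 17.4 and 77.1 FPKM in WT 2i, the lowest and highest of all libraries, and 61.2 and 43.2 FPKM in P53-/- 2i, while the defining fibroblast genes Col1a2, Col3a1 and Postn were at or near 0. Thy1, in the same list of 8, was at 7.55 to 10.5 FPKM in serum and 0.343 to 0.972 FPKM in 2i. The part of these markers in the values of the E2F and DP genes was not tested. Trp53, the targeted gene, was at 77.6 and 75.1 FPKM in WT serum, 16.8 and 3.68 FPKM in P53-/- serum, 26.8 and 33.7 FPKM in WT 2i and 7.25 and 1.88 FPKM in P53-/- 2i. Trp53 was lower in every P53-/- library than in WT, and its level differed between the 2 P53-/- libraries of each culture. Library numbers do not link libraries across cultures.

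FPKM is scaled by gene length, so levels can be set side by side between members. Tfdp1, the main DP subunit, was the highest member in all 8 libraries. In WT serum its mean was 90.4 ± 1.80 FPKM (SD, n = 2), followed by E2f4 at 52.2 ± 3.15 FPKM. E2f3 (15.7 ± 0.020 FPKM), E2f8 (15.3 ± 1.06 FPKM) and E2f5 (15.0 ± 1.44 FPKM) came next, with overlapping libraries. E2f1 (12.8 ± 0.787 FPKM), Tfdp2 (12.2 ± 0.021 FPKM), E2f6 (11.2 ± 0.642 FPKM) and E2f2 (10.1 ± 0.926 FPKM) followed, and E2f7 was lowest at 5.66 ± 0.388 FPKM, and of these neighbours only E2f6 and E2f2 had overlapping libraries. In WT 2i the order was Tfdp1 (35.7 ± 3.17 FPKM), E2f4 (17.4 ± 1.40 FPKM), E2f5 (11.8 ± 3.86 FPKM), E2f6 (9.51 ± 2.02 FPKM) and E2f1 (8.93 ± 0.472 FPKM), of which the last 3 had overlapping libraries. Tfdp2 (5.36 ± 0.479 FPKM), E2f3 (2.99 ± 0.113 FPKM) and E2f2 (1.79 ± 0.141 FPKM) did not overlap their neighbours, and E2f8 (1.36 ± 0.327 FPKM) overlapped with E2f7 (0.877 ± 0.382 FPKM) at the bottom.

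**Figure D1:**
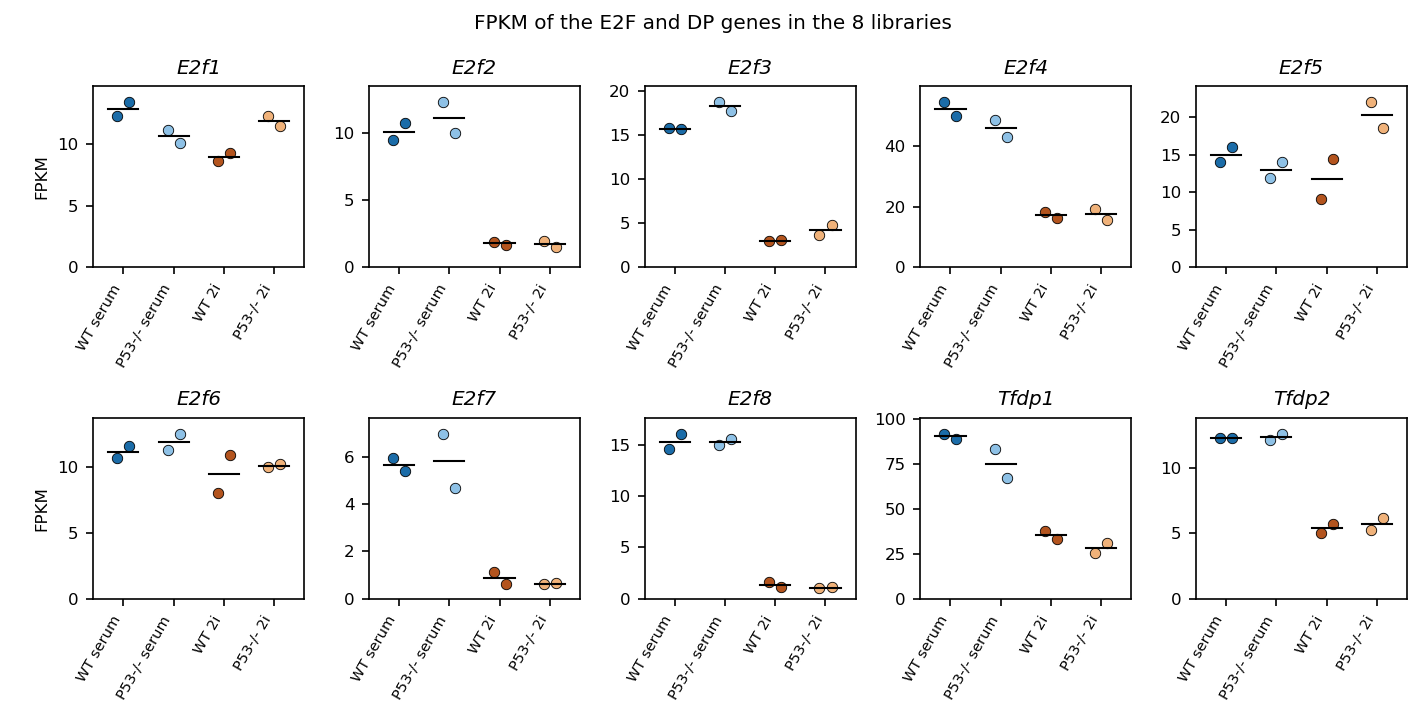
FPKM of each of the 10 genes in the 8 libraries, with 1 panel per gene and a linear axis from 0; points are libraries and bars the mean of the 2 libraries of a group. E2f2, E2f3, E2f4, E2f7, E2f8, Tfdp1 and Tfdp2 are lower in all 2i libraries than in all serum libraries, whereas E2f1, E2f5 and E2f6 overlap between the cultures.

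The first comparison asked how the genes differ between WT cells in 2i and in serum. In WT cells 7 of the 10 genes were lower in 2i and none was higher. They were E2f2 and E2f3 among the activators, E2f4 among the repressors, both atypical genes and both DP genes. A gene was called at a limma adjusted p under 0.1 with a fold change over 1.5, and under this rule 55.7% of all tested genes were called, 28.6% lower and 27.2% higher. Every 2i library lay below every serum library for 8 members, E2f1 and the 7 called, as it did for 41.7% of all genes. The median log2 fold change of the 10 genes was -1.46, against -0.02 over all tested genes. As RNA was measured in bulk, fewer cells expressing a gene and less RNA per cell cannot be told apart.

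The activators parted in their response to culture. E2f1, which drives S-phase genes and is itself an E2F target, was at 12.3 and 13.4 FPKM in WT serum and 8.60 and 9.27 FPKM in WT 2i. The WT groups did not overlap, yet the log2 fold change of -0.52 (SE 0.13, adjusted p = 0.0104) stayed under the fold required. E2f2 was at 9.46 and 10.8 FPKM in WT serum and 1.89 and 1.69 FPKM in WT 2i, which gave a log2 fold change of -2.44 (SE 0.20, adjusted p = 7.3e-05). E2f3 was at 15.7 FPKM in both libraries of WT serum, compared with 2.91 and 3.07 FPKM in WT 2i, which gave a log2 fold change of -2.35 (SE 0.16, adjusted p = 3.8e-05). E2f2 and E2f3 were thus 5.41-fold and 5.11-fold lower in 2i, whereas E2f1 was 1.43-fold lower.

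Of the repressors only E2f4 passed. E2f4, the most abundant E2F transcript in serum, was at 54.4 and 49.96 FPKM in WT serum and 18.4 and 16.4 FPKM in WT 2i, which gave a log2 fold change of -1.58 (SE 0.15, adjusted p = 0.000101). E2f5, which like E2f4 binds the pocket proteins Rbl1 and Rbl2, was at 14.0 and 16.1 FPKM in WT serum and 9.05 and 14.5 FPKM in WT 2i. Its WT groups overlapped, and the log2 fold change was -0.39 (SE 0.23, adjusted p = 0.173). E2f6, which lacks the pocket protein binding domain and acts in a polycomb complex, was at 10.7 and 11.6 FPKM in WT serum and 8.09 and 10.9 FPKM in WT 2i. These groups overlapped too, with a log2 fold change of -0.24 (SE 0.17, adjusted p = 0.241). Without library 2 of WT 2i, the fold change of E2f5 reached -0.72 (adjusted p = 0.017) and was called.

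Of the atypical genes, E2f8 showed the largest log2 fold change among the members, while E2f7 lay within its SE of E2f2 (-2.44). With the correction for GC content and length described below, E2f2 was at -2.52 and E2f7 at -2.40. E2f8 was at 14.6 and 16.1 FPKM in WT serum and 1.59 and 1.12 FPKM in WT 2i, which was 10.7-fold lower in 2i (log2 fold change -3.42, SE 0.20, adjusted p = 2.6e-05). E2f7 was at 5.94 and 5.39 FPKM in WT serum and 1.15 and 0.607 FPKM in WT 2i, which was 6.13-fold lower (log2 fold change -2.62, SE 0.32, adjusted p = 0.000355). Every 2i library lay below every serum library for both genes. These low levels rested on few reads, an estimated 17 to 50 fragments per 2i library for E2f7 and 22 to 46 for E2f8, and the pseudocount of 0.1 FPKM makes the fold changes of such low genes smaller.

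Both DP genes were lower in WT 2i. Tfdp1 was at 91.7 and 89.1 FPKM in WT serum and 37.9 and 33.4 FPKM in WT 2i, which gave a log2 fold change of -1.34 (SE 0.15, adjusted p = 0.000232). Tfdp2, the less abundant DP gene, was at 12.2 FPKM in both libraries of WT serum, compared with 5.02 and 5.70 FPKM in WT 2i, which gave a log2 fold change of -1.18 (SE 0.15, adjusted p = 0.000363). The ratio of Tfdp1 to Tfdp2 FPKM was 5.36 to 7.50 over the serum libraries and 4.89 to 7.54 over the 2i libraries, so the ranges overlapped.

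P53-/- cells were compared between the cultures in the same way, and 7 members were lower in 2i and 1 was higher. Over all tested genes, 58.2% were called in this comparison, 30.1% lower and 28% higher. The 2i libraries lay wholly below the serum libraries for 8 members (42.1% of all genes) and wholly above for E2f1 and E2f5 (39.7% of all genes). The 7 that fell were E2f2, E2f3, E2f4, E2f7, E2f8, Tfdp1 and Tfdp2. E2f8 was at 15.0 and 15.6 FPKM in P53-/- serum and 1.02 and 1.13 FPKM in P53-/- 2i, 13.1-fold lower (adjusted p = 1.58e-05). E2f7 was at 6.96 and 4.66 FPKM and at 0.622 and 0.651 FPKM, 7.88-fold lower (adjusted p = 0.000171). The groups were thus separated for both atypical genes here as well.

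E2f2 was at 12.3 and 10.004 FPKM in P53-/- serum and 1.97 and 1.48 FPKM in P53-/- 2i, 6.18-fold lower (adjusted p = 4.69e-05). E2f3 was at 18.7 and 17.7 FPKM and at 3.59 and 4.75 FPKM, 4.32-fold lower (adjusted p = 4.6e-05). E2f1 was at 11.2 and 10.1 FPKM in P53-/- serum and 12.3 and 11.5 FPKM in P53-/- 2i, with a log2 fold change of 0.16 (SE 0.13, adjusted p = 0.315). E2f1 was therefore the activator without a called culture difference in either genotype.

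E2f4 was at 48.7 and 43.0 FPKM in P53-/- serum and 19.3 and 15.6 FPKM in P53-/- 2i, 2.63-fold lower (adjusted p = 0.000146). E2f5 was at 11.9 and 14.0 FPKM in P53-/- serum and 22.0 and 18.6 FPKM in P53-/- 2i, 1.56-fold higher in 2i (log2 fold change 0.64, SE 0.23, adjusted p = 0.038). This was the member that rose, and its fold lay close to the required 1.5. The E2f5 call was lost without library 1 of P53-/- serum (log2 fold change 0.53, adjusted p = 0.176) or without library 1 of P53-/- 2i (0.52, adjusted p = 0.177). E2f6 was at 11.3 and 12.5 FPKM and at 9.995 and 10.2 FPKM, a log2 fold change of -0.24 (adjusted p = 0.251). Tfdp1 was at 83.1 and 67.3 FPKM in P53-/- serum and 25.6 and 30.8 FPKM in P53-/- 2i (2.65-fold lower, adjusted p = 0.00016), and Tfdp2 was at 12.1 and 12.6 FPKM and at 5.25 and 6.19 FPKM (2.14-fold lower, adjusted p = 0.000437). Both DP genes were lower in each P53-/- 2i library than in each P53-/- serum library.

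**Figure D2:**
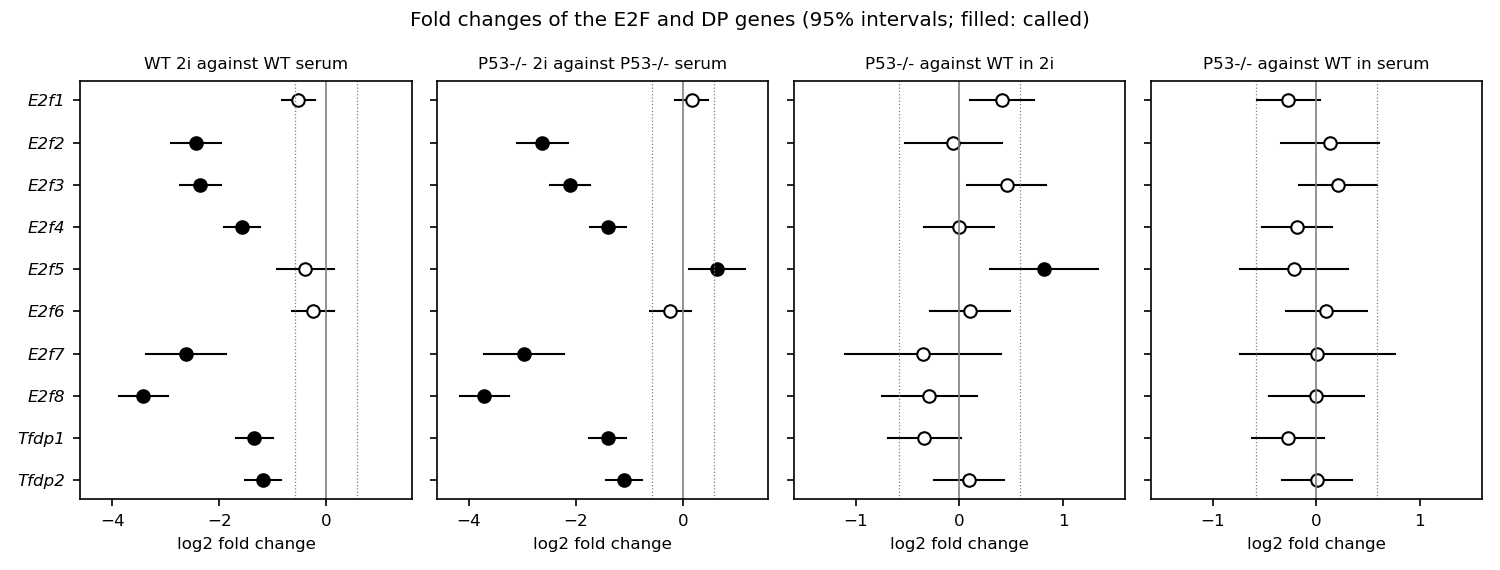
Log2 fold changes of the 10 genes in the 4 comparisons, with 95% intervals from the limma fit; filled points passed the adjusted p and fold thresholds, dotted lines mark the 1.5-fold threshold, and the culture panels have a wider axis than the P53 panels. E2f8 has the lowest value in both culture comparisons (-3.42 in WT and -3.71 in P53-/- cells), and E2f5 has the single filled point between genotypes (0.81 in 2i).

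The make-up of the E2F transcripts differed with it. The 8 E2F genes summed to 138 ± 1.30 FPKM (SD, n = 2) in WT serum, 132 ± 5.86 FPKM in P53-/- serum, 54.6 ± 4.21 FPKM in WT 2i and 67.4 ± 4.90 FPKM in P53-/- 2i. The atypical genes made up 14.9% to 16.2% of this sum in the 4 serum libraries and 2.32% to 5.29% in the 4 2i libraries. The repressors made up 52.9% to 57.7% in serum and 68.8% to 72.6% in 2i, and the activators 27.3% to 30.9% in serum and 24.3% to 27.7% in 2i. The ranges of the repressor and atypical shares did not overlap between cultures, whereas the activator ranges did.

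Within the activators the weight lay on E2f1 in 2i. E2f1 made up 7.93% to 9.64% of the E2F sum in serum and 16.1% to 18.0% in 2i, and the ratio of E2f1 to E2f4 FPKM was 0.226 to 0.268 in serum and 0.468 to 0.738 in 2i. E2f5 made up 8.75% to 11.6% in serum and 17.5% to 31.1% in 2i. E2f4 led the E2F genes in all serum libraries and in both WT 2i libraries, but E2f5 stood above it in both P53-/- 2i libraries. The summed DP level relative to the summed E2F level was 0.625 to 0.758 in serum and 0.436 to 0.831 in 2i. These shares describe the libraries and were not tested.

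**Figure D3:**
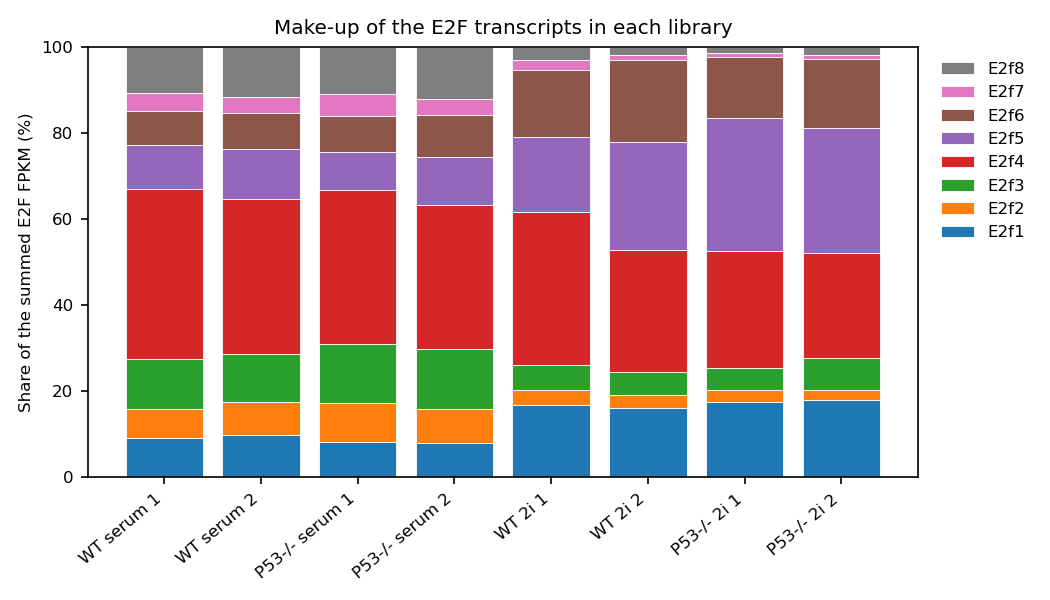
Share of each E2F gene in the summed E2F FPKM, in percent, for each of the 8 libraries (stacked bars). E2f7 and E2f8 together take 14.9% to 16.2% in serum and 2.32% to 5.29% in 2i, while E2f1, E2f5 and E2f6 take larger shares in 2i than in serum.

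Fold changes moved with base composition over the whole table. Across 12484 tested genes with a length and GC content, Spearman's rho between GC content and the log2 fold change was 0.343 in WT and 0.287 in P53-/- cells, and with length it was -0.269 and -0.277. Between P53-/- and WT cells rho with GC content was -0.243 in 2i and -0.228 in serum. These values are across genes, which are not independent replicates. Transcript GC was highest for E2f1 (58.3%), E2f2 (56.6%) and E2f4 (56.1%) and lowest for Tfdp1 and Tfdp2 (both 45.5%). In a fit corrected for GC content and length, added after the data were seen, E2f2, E2f3, E2f4, E2f7, E2f8 and Tfdp1 were still lower in WT 2i, at log2 fold changes of -3.54 for E2f8 to -1.21 for Tfdp1. E2f1 (-0.89, adjusted p = 0.00138) and E2f5 (-0.65, adjusted p = 0.0331) also passed in that fit. Tfdp2 no longer passed in either genotype (-0.41, adjusted p = 0.0396 in WT and -0.31, adjusted p = 0.0997 in P53-/- cells). In P53-/- cells the corrected value of E2f5 was 0.33 (adjusted p = 0.224) and that of E2f1 changed sign to -0.15. The part of base composition in these differences was not tested beyond this fit.

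**Figure D4:**
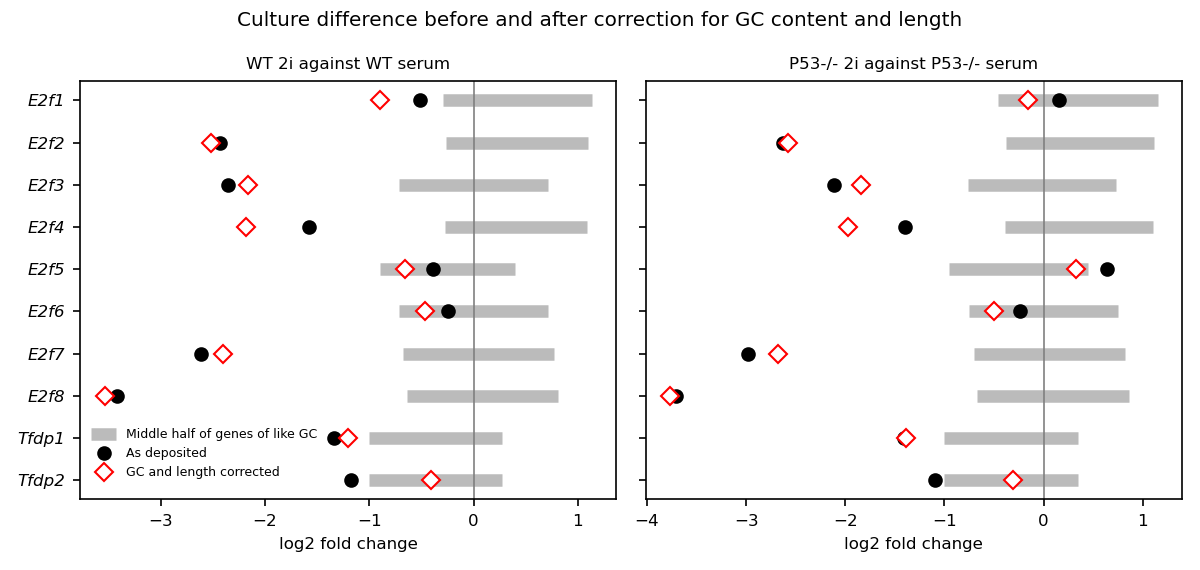
Log2 fold changes between 2i and serum for the 10 genes, as deposited (black) and after correction for GC content and length (red), with grey bars from the lower to the upper quartile of genes of like GC content. The corrected values stay far below 0 for E2f2, E2f3, E2f4, E2f7, E2f8 and Tfdp1, and move toward 0 for Tfdp2 (-1.18 to -0.41 in WT cells).

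Promoter sequences are shown for 4 members that were lower in 2i in both genotypes. RefSeq windows of GRCm38.p6, 250 bases before to 50 bases after an annotated start, were at hand for 8 of the 10 genes, in 12 windows. By the GENCODE M21 annotation of the same assembly, the 250 bases before the start lay wholly outside the gene in 5 of the 12 windows, the 4 shown among them. The window of E2f1 lay inside the gene, with 188 of its 250 bases before the start being coding, so it holds no promoter of the outermost start and is not shown. The 4 E2F octamers TTTCCCGC, TTTCGCGC, TTTGCCGC and TTTGGCGC and the cell cycle homology region (CHR) core TTTGAA, a site bound by the MuvB complex, were searched on both strands, and no motif holds another. The 250 bases before the start are printed 5′ to 3′ on the gene's strand, with matches in capitals.
E2f3 (chr13:29986064-29986313, minus strand): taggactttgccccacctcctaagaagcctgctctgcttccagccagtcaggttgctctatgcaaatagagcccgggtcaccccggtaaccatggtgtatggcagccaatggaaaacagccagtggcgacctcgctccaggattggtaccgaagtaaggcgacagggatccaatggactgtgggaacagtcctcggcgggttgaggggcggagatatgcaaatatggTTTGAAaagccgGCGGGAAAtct
E2f7 (chr10:110745189-110745438, plus strand): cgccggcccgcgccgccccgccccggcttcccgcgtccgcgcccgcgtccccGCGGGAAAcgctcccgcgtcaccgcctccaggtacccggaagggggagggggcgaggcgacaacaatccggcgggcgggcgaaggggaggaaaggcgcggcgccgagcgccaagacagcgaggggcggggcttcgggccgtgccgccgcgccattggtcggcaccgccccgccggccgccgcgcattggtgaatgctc
E2f8 (chr7:48881597-48881846, minus strand): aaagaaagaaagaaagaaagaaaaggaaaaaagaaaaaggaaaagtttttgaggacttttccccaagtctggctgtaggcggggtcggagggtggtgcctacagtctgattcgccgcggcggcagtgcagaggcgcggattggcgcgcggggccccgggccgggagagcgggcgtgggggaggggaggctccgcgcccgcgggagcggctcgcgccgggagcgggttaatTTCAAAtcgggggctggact
Tfdp1 (chr8:13338501-13338750, plus strand): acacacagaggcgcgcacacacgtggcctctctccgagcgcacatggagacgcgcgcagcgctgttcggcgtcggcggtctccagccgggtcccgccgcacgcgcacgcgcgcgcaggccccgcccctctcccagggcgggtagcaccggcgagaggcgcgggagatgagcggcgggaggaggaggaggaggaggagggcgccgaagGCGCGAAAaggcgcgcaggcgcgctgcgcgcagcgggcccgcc
E2F octamers were found in 5 of the 12 windows, from 4 members, against 2.26% of 32851 windows of the same length in the table, of which others may also lie inside genes. In E2f3 the octamer GCGGGAAA began 11 bases before the start, after a CHR match that began at 23 bases, and in E2f7 the same letters began 198 bases before the start. Tfdp1 held GCGCGAAA at 43 bases before the start shown, and this match also counted in its second, overlapping window. E2f2, not printed, held TTTGGCGC 40 bases after a start, and a CHR match at 31 bases before its other start, which lies inside the gene. E2f8 held a CHR match at 20 bases and no octamer, and 17.9% of all windows held a CHR match. These matches are a description of the letters, and binding was not examined.

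The next comparison asked which members respond to loss of P53 in 2i. E2f5 was the 1 of 10 genes called, higher in P53-/- cells, where 10.3% of all tested genes were called, 4.36% higher and 5.97% lower. E2f5 was at 9.05 and 14.5 FPKM in WT 2i and 22.0 and 18.6 FPKM in P53-/- 2i, and the groups did not overlap, as for 29% of all genes with P53-/- above WT. The log2 fold change was 0.81 (SE 0.23, adjusted p = 0.0731), or 1.76-fold. The call is a weak one, since it was lost in 11 of the 18 alternatives. Among these are fits without a serum library, which leave the log2 fold change at 0.81 and alter only the estimated spread. Such fits do not bear on the E2f5 values themselves. Over all alternatives the log2 fold change ran from 0.48 to 1.15. Without library 1 of WT 2i, the lower of the WT libraries and the one with the lowest feeder marker sum, the log2 fold change was 0.48 (adjusted p = 0.197). The part of the difference between these 2 libraries in the E2f5 value was not tested beyond this.

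Among the activators in 2i, E2f1 was at 8.60 and 9.27 FPKM in WT and 12.3 and 11.5 FPKM in P53-/- cells, with a log2 fold change of 0.41 (SE 0.13, adjusted p = 0.103). E2f3 was at 2.91 and 3.07 FPKM in WT and 3.59 and 4.75 FPKM in P53-/- cells, with a log2 fold change of 0.45 (SE 0.16, adjusted p = 0.135). For both genes each P53-/- library lay above each WT library, but neither passed. With the GC and length correction E2f1 passed at 0.59 (adjusted p = 0.0497), and without library 1 of P53-/- 2i E2f3 passed at 0.65 (adjusted p = 0.0982). E2f2 had a log2 fold change of -0.06 (adjusted p = 0.90), and its sign turned under quantile normalization and the GC correction.

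Tfdp1 was at 37.9 and 33.4 FPKM in WT 2i and 25.6 and 30.8 FPKM in P53-/- 2i, lower in both P53-/- libraries, as for 24.7% of all genes, with a log2 fold change of -0.34 (SE 0.15, adjusted p = 0.212). E2f4 differed by 0.00 on the log2 scale, with a 95% interval of -0.34 to 0.34. The log2 fold changes of E2f6, E2f7, E2f8 and Tfdp2 were 0.10, -0.35, -0.29 and 0.09, and none passed. The 95% interval reached past 1.5-fold for 6 members, E2f1, E2f3, E2f5, E2f7, E2f8 and Tfdp1. The interval for E2f7, the lowest member, ran from -1.10 to 0.40, so that a fall of over 1.5-fold lies within what the data allow. Those of E2f8 (-0.745 to 0.165) and Tfdp1 (-0.688 to 0.011) allow such a fall too. Those of E2f1 (up to 0.72) and E2f3 (up to 0.83) allow a rise of that size.

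In serum none of the 10 genes was called between P53-/- and WT cells by limma, where 1.02% of all tested genes were called in either direction. None reached an unadjusted p under 0.05 either, against 1422 of the 12572 tested genes. The log2 fold changes ran from -0.27 for Tfdp1 (adjusted p = 0.532) and E2f1 (adjusted p = 0.483) to 0.21 for E2f3 (adjusted p = 0.665). E2f1, E2f4, E2f5 and Tfdp1 were lower in both P53-/- serum libraries than in both WT serum libraries, as were 21.8% of all genes, and E2f3 was higher in both, as were 25.7%. The 95% intervals were -0.57 to 0.04 for E2f1, -0.62 to 0.08 for Tfdp1 and -0.17 to 0.59 for E2f3, and for 5 members, E2f2, E2f3, E2f5, E2f7 and Tfdp1, the interval reached past 1.5-fold in at least one direction. The widest of them were -0.74 to 0.31 for E2f5 and -0.74 to 0.76 for E2f7.

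Whether the effect of P53 loss differed between cultures was tested as an interaction in the same limma fit, and no member was called, where 0.207% of all tested genes were. E2f5 had the largest log2 difference, 1.03 (SE 0.32, unadjusted p = 0.0127 and adjusted p = 0.253 from limma), and E2f1 had 0.68 (SE 0.19, unadjusted p = 0.0068 and adjusted p = 0.211). Both genes were above WT in every P53-/- 2i library and below WT in every P53-/- serum library, as were 3.82% of all tested genes. They were the 2 members with an unadjusted p under 0.05, against 1651 of all tested genes. The comparisons of P53 loss and of culture use the same libraries, and their values are therefore not independent of each other.

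The pathway around these factors was read through lists of known genes. Upstream, Cdkn1a, the P53 target that encodes the kinase inhibitor P21, was lower in P53-/- cells in 2i (log2 fold change -2.24, adjusted p = 0.00218) and in serum (-2.18, adjusted p = 0.00601). Of 15 G1 cyclins, kinases and inhibitors, Cdkn1a among them, 2 (13.3%) were higher and 3 (20%) lower in P53-/- 2i, against 4.36% and 5.97% of all tested genes. The others were Cdkn1b, another kinase inhibitor (0.60, adjusted p = 0.0314), and Ccne2 above WT, and Cdkn2b (-1.32, adjusted p = 0.0387) and Ccnd2 (-1.28, adjusted p = 0.0381) below WT. Ccnd2 was at 0.294 and 0.290 FPKM in WT 2i and 0.035 and 0.093 FPKM in P53-/- 2i. It passed the filter of 0.5 FPKM only through its serum libraries, so its call in 2i is uncertain. Among the 3 pocket protein genes, Rbl2 was lower in P53-/- 2i (-1.03, adjusted p = 0.051) and had a like value in serum without passing (-1.09, adjusted p = 0.15), with an interaction of 0.06 (adjusted p = 0.964). Rb1 had -1.29 in 2i (adjusted p = 0.102) and -1.88 in serum (adjusted p = 0.13) without passing. It was at 1.44 and 1.85 FPKM in WT 2i and 0.391 and 0.927 FPKM in P53-/- 2i. In serum it was at 3.26 and 3.50 FPKM in WT and 0.650 and 1.08 FPKM in P53-/- cells. Rb1 was thus lower in every P53-/- library than in WT in both cultures, as were 24.7% of all genes in 2i and 21.8% in serum. Between cultures Rb1 was lower in WT 2i (-1.01, adjusted p = 0.0663), and Rbl1 was higher in P53-/- 2i than in P53-/- serum (0.65, adjusted p = 0.0216).

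Among the same 15 genes, 3 (20%) were higher and 5 (33.3%) lower in WT 2i than in WT serum, near the shares of all tested genes (27.2% and 28.6%). The 3 that rose were the INK4 inhibitor genes Cdkn2b (log2 fold change 2.20), Cdkn2d (1.28) and Cdkn2c (1.20), and the most reduced were Ccnd2 (-4.53), Ccne2 (-2.19), Ccne1 (-1.70) and Cdk6 (-1.38). Cdkn2d was at 0.324 and 0.494 FPKM in WT serum, and Ccnd2 was at 0.294 and 0.290 FPKM in WT 2i. Both passed the filter of 0.5 FPKM only through the culture where they are high, so the size of their fold changes is uncertain. Downstream, of 44 G1/S genes known as E2F targets, 23 (52.3%) were lower and 1, Cdc45 at 0.61, was higher in WT 2i, with a median of -0.61 against -0.02 over all genes. Among the strongly reduced were Rrm2 (-2.39), a ribonucleotide reductase subunit, Ccne2, a cyclin E gene, and Ezh2 (-1.93), a polycomb methyltransferase. In P53-/- cells 16 (36.4%) were lower and 4 (9.09%) higher in 2i, namely Rbl1, Mcm5, Cdc45 and Uhrf1, with a median of -0.33. Of all tested genes 28.6% were lower and 27.2% higher in WT 2i, and 30.1% were lower and 28% higher in P53-/- 2i, so the lower share in P53-/- cells was near the background and the higher share below it. Of 16 G2/M genes 14 (87.5%) were lower in WT 2i, all but Cdk1 (0.11) and Aurkb (-0.04), and 10 (62.5%) were lower in P53-/- 2i. The summed G2/M level was 996 to 1025 FPKM in serum and 421 to 675 FPKM in 2i, and its part in the E2F values was not tested.

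Of the 44 G1/S target genes 5 (11.4%) were higher in P53-/- than in WT cells in 2i, against 4.36% of all tested genes. A log2 fold change above 0 was found for 35 of the 44, against 52.4% of all tested genes, and 18 had an unadjusted p under 0.05, against 25.2%. The 5 were Ccna2 (1.03, adjusted p = 0.0022), a cyclin of S phase, Cdc25a (1.03, adjusted p = 0.00774), a phosphatase that activates Cdk2, Chek1 (0.92, adjusted p = 0.0202), a checkpoint kinase, Rfc4 (0.88, adjusted p = 0.0178), a clamp loader subunit, and Ccne2 (0.83, adjusted p = 0.0559). The list median was 0.26, against 0.02 over all genes. Of the 16 G2/M genes 6 (37.5%) were higher in P53-/- 2i, against 4.36% of all tested genes, with a median of 0.47, and their part in the target values was not tested. In serum limma called none of the 44 between genotypes, and 4 had an unadjusted p under 0.05, against 11.3% of all tested genes. A log2 fold change above 0 was found in serum for 15 of the 44 and below 0 for 29, where 52.6% of all tested genes were above 0. The list median in serum was -0.07, against 0.02 over all genes. In the interaction 1 of the 44 (2.27%) passed, Ccna2 at 1.16 (adjusted p = 0.0435), against 0.207% of all tested genes. The interaction value was above 0 for 39 of the 44, against 50.8% of all genes, with a median of 0.32 against 0.01, and 11 had an unadjusted p under 0.05, against 13.1% of all genes.

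**Figure D5:**
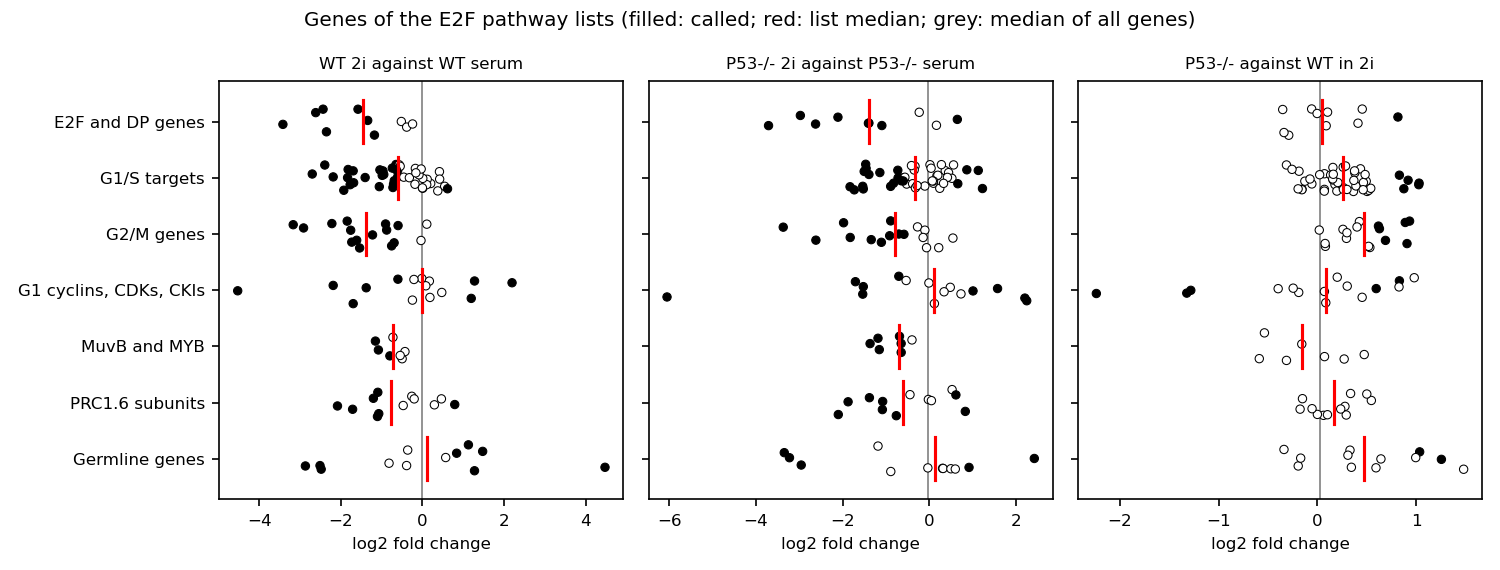
Log2 fold changes of the genes in the pathway lists in the comparisons named above each panel; each point is a gene, filled where it passed the thresholds, with the list median in red and the median of all genes in grey. The G1/S target list has a median of -0.61 in WT 2i against serum and of 0.26 for P53-/- against WT in 2i.

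E2f6 works in the polycomb complex PRC1.6, and 12 of its genes were read beside it. In WT 2i 6 of the 12 (50%) were lower, against 28.6% of all genes, and 1, Wdr5, was higher (0.79). Rybp (log2 fold change -2.08) and Max (-1.71) fell most, and Mga (-1.10) was among the others that were lower. E2f6 itself was not called in either genotype. Between genotypes limma called none of the 12 in either culture, with 5 at an unadjusted p under 0.05 in 2i and 1 in serum, against 25.2% and 11.3% of all tested genes. The MuvB core joins E2f4, a DP protein and a pocket protein in quiescent cells and a MYB protein in cycling cells. Of 7 MuvB and MYB genes 3 (42.9%) were lower in WT 2i and 6 (85.7%) in P53-/- 2i, against 28.6% and 30.1% of all genes. All 7 had a log2 fold change below 0 in both genotypes, where 49.2% and 48.6% of all genes were above 0, and the medians were -0.72 and -0.69, against -0.02 and -0.03 over all genes.

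The genes whose pattern was most like that of a member were sought over the 8 libraries, by Pearson's r of log2 values among 11495 genes with a mean of at least 1 FPKM. The libraries share 2 cultures and 2 genotypes, and r is given as a description. E2f8, the member with the largest culture difference, had its nearest patterns in Gpatch4, Actn4, Ska3, Samd8 and Slc38a2, at r of 0.998 to 0.999. E2f1 had among its nearest Gtf2a2 (0.958), Zc2hc1a (0.953), Tgif2 (0.932) and Pole2 (0.926), the last a subunit of a replicative DNA polymerase.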

How the data were processed

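RNA was measured in G1-sorted ESCs, and the deposited table holds FPKM values per gene symbol for 8 libraries, made by the authors by RNA-seq. The submitters' processing notes name STAR, Cufflinks, DESeq2 and mm9, without versions or roles. Read counts were not used here. Column names give genotype and culture only, so library numbers follow column order and pair nothing. Nothing ties libraries to separate cultures or clones, and p-values measure the spread between these samples, which may be technical. The 4 other samples of the series and the ChIP-seq of the study were not analysed here.

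Values entered the tests as log2(FPKM + 0.1), and the 12572 genes that averaged 0.5 FPKM or more were kept. A single limma fit (limma 3.58.1, R 4.3.3; empirical Bayes with trend) covered the 4 groups, and p-values were adjusted over all tested genes by Benjamini-Hochberg. A gene was called at adjusted p under 0.1 with a fold change over 1.5 on this log2 scale. The fit was run on simulated data with changes larger than any P53 effect of the members, so it was not tested at effects of their size. Depth was estimated from the steps between low FPKM values and is known up to a common factor. Symbols were matched to GENCODE M21 (98.2% of the table) for length and GC content. Promoters came from RefSeq. Python 3.11.15 with pandas 2.3.3, numpy 2.4.6 and matplotlib 3.10.9 made the remaining tables and figures.

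The members and lists were chosen with earlier results of these data known. All 10 members are named. From each list at most the 4 called genes with the largest change in each direction are named, with the pocket proteins, Cdkn1a, Cdkn1b and Trp53 always, and Ccne2 was added among the G1/S genes after its value was seen. Some genes that this rule would name are not reported here. Alternatives covered the pseudocount, the filter, scaling, the samples and prior of the fit, the threshold and each library left out.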

Additional observations from a re-analysis of the deposited data

Results flagged for a closer look

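E2f1 and E2f5 were set apart because their P53-/- and WT libraries differed in opposite directions in the 2 cultures. For both genes every P53-/- library was above every WT library in 2i and below every WT library in serum, a pattern that 3.82% of all tested genes showed. The log2 difference between the effects was 0.68 for E2f1 and 1.03 for E2f5, and in the interaction test (limma) the adjusted p was 0.211 for E2f1 and 0.253 for E2f5, so that neither passed.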

How the results depend on the processing

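Of the 890 values of the 10 genes under the alternatives, 832 kept their direction and their side of the threshold, 16 lost a call, 5 gained one and 37 turned in sign. Many of these values could not change direction. A filter, prior or threshold setting leaves the fold change as it was, as does dropping a library of a group not compared. Most values were also uncalled in the main fit, so the count does not measure how stable the calls are. No paired analysis was possible because the columns carry no replicate numbers. Without a library in turn, 7 to 8 members were called between cultures in WT cells and 7 to 8 in P53-/- cells, 0 in serum and in the interaction, and 0 to 1 between genotypes in 2i (main value 1). That last count was 0 with no filter on low values, with only the groups compared, without trend and at an adjusted p under 0.05, and 2 with the GC content and length correction, which was chosen after seeing the data. Signs turned only in small fold changes that were not called. For P53 loss in 2i, median-ratio scaling gave E2f4 0.0091, quantile normalization gave E2f2 0.081, and the GC correction gave E2f2 0.21 and E2f4 0.12. For P53 loss in serum, median-ratio scaling gave E2f7 -0.00402, E2f8 -0.013 and Tfdp2 -0.0050, quantile normalization gave E2f8 -0.019 and Tfdp2 -0.00158, and the GC correction gave Tfdp2 -0.00626. The GC correction also gave E2f6 -0.029 in the interaction and E2f1 -0.15 between cultures in P53-/- cells. Leaving out a library gave, for P53 loss in 2i, E2f2 -0.25 to 0.14, E2f4 -0.16 to 0.15, E2f6 -0.11 to 0.32, E2f7 -0.76 to 0.058 and Tfdp2 -0.029 to 0.21. In serum it gave E2f2 -0.013 to 0.28, E2f7 -0.27 to 0.29, E2f8 -0.068 to 0.072 and Tfdp2 -0.019 to 0.038. In the interaction it gave E2f2 -0.39 to 0.0054, E2f6 -0.21 to 0.22, E2f7 -0.77 to 0.048, Tfdp1 -0.22 to 0.087 and Tfdp2 -0.038 to 0.20. The cause was not tested. With 2 libraries a group, a dropped library leaves a lone sample assumed to vary like the other groups, and depth limits E2f2, E2f7 and E2f8 in 2i most.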

Other observations

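Germline genes known to be held silent by E2f6 and PRC1.6 were read as a further list of 12. Between cultures in WT cells 5 (41.7%) were higher in 2i, against 27.2% of all tested genes, led by Tuba3b (log2 fold change 4.47), a testis tubulin gene, which was at 0.661 and 0.0964 FPKM in WT serum and 11.7 and 6.14 FPKM in WT 2i. As the second of these serum values is at the pseudocount, the size of that fold change is uncertain. The 3 (25%) that were lower, against 28.6% of all genes, were Mael (-2.87), Ddx4 (-2.51) and Tdrkh (-2.48), which act in the piRNA pathway, and the list median was 0.10. Tdrkh was at 0.412 and 0.172 FPKM in WT 2i, under the filter level of 0.5 FPKM, so the size of its fold change is uncertain too. In P53-/- cells 2 of the 12 (16.7%) were higher than in WT in 2i, against 4.36% of all tested genes, Stk31 (1.26) and Stag3 (1.04), the latter a meiotic cohesin subunit. In serum Stk31 passed as 1 of 12 (1.18, adjusted p = 0.0509 from limma), where 0.135% of all tested genes were higher. All 12 had a log2 fold change above 0 in serum, as had 52.6% of all tested genes, with a median of 1.16 against 0.02 over all tested genes. E2f6 itself was at 10.7 and 11.6 FPKM in WT serum and 11.3 and 12.5 FPKM in P53-/- serum, overlapping between genotypes.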
